A study of Mus musculus with 11 samples.

Results

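Somatostatin (*Sst*), 5 further genes known from islet delta cells (*Hhex*, *Ghsr*, *Rbp4*, *Casr* and *Lepr*) and 3 somatostatin receptor genes (*Sstr1*, *Sstr2* and *Sstr3*) were followed across sorted islet cells. These 9 genes were chosen by name from the 55401 genes of the count table, and all 9 passed the filter on low counts, *Lepr* through its counts in non-beta cells. Poly(A) RNA had been sequenced from FACS-sorted islet cells of 4 chow-fed male C57BL6/J mice, aged 10 weeks by the sample labels. Every mouse carried Cre under the rat insulin promoter (RIP), a tdTomato reporter behind a STOP cassette and the *Nnat*-EGFP reporter, a bacterial artificial chromosome transgene inherited from the father. The sort therefore took beta cells by tdTomato, that is by past activity of RIP-Cre, and divided them by eGFP into a fraction labelled NNAT-positive and a fraction labelled NNAT-negative, with 4 libraries each. The number in the labels was read as the mouse. Cells without tdTomato gave 3 libraries of non-beta cells, from mice 1 to 3, so that the 11 libraries held no non-beta cells of mouse 4.

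Delta cells are a minor endocrine cell type of the islet. They release somatostatin, which acts on neighbouring beta and alpha cells through receptors coupled to inhibitory G proteins and lowers the secretion of insulin and glucagon. HHEX is the homeodomain factor that keeps delta cells in their state, and GHSR, the ghrelin receptor, is carried in mouse islets mainly by delta cells. Of the receptors, SSTR3 is known from the primary cilium of mouse beta cells and SSTR2 from alpha cells.

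Library totals were between 30420352 and 43238376 counts, and 3 counts, the floor used here, were at most 0.102 CPM, the count scaled to library size, in any library. *Nnat* itself had a mean of 61.0 ± 26.8 CPM (SD, *n*=4) in the NNAT-positive-labelled libraries and 93.8 ± 40.1 CPM (*n*=4) in the NNAT-negative-labelled ones, and was lower in the former in 4 of 4 mice (log2 fold change −0.62, SE 0.17, adjusted *p*=0.444 in edgeR). The level of *Nnat* thus ran against the labels, and every direction between the beta cell fractions below is a direction between libraries as labelled. All 8 beta cell markers examined were called higher in both beta cell fractions than in non-beta cells, against 6.13% and 6.18% of all tested genes. The sort took beta cells by RIP-Cre activity, so this describes the sort and is not a separate result. In non-beta cells *Ins1* and *Ins2* took between 0.970% and 2.34% of counts. In sorted bulk samples, fewer cells of a type and less RNA per cell cannot be told apart.

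The stretches upstream of *Sst*, *Hhex*, *Ghsr* and *Rbp4* are shown because these 4 genes had the same order of fractions, and that of *Sstr2* because it shares a motif with *Sst*. Each is the 250 bases before the RefSeq start of transcription on GRCm38.p6, written on the strand of the gene from 5′ to 3′. They lie at chr16:23890845-23891094 (minus strand, *Sst*), chr19:37434591-37434840 (plus, *Hhex*), chr3:27371101-27371350 (plus, *Ghsr*), chr19:38125322-38125571 (minus, *Rbp4*) and chr11:113619077-113619326 (plus, *Sstr2*). Capitals mark the cyclic AMP response element (CRE) TGACGTCA, the site of the factor CREB, and the core TAAT of homeodomain factors such as PDX1, on either strand.
Sst: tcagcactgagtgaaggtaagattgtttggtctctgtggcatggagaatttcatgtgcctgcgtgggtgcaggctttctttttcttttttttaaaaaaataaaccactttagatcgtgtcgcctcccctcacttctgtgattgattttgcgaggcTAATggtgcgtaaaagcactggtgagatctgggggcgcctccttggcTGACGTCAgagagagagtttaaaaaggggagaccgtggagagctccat
Hhex: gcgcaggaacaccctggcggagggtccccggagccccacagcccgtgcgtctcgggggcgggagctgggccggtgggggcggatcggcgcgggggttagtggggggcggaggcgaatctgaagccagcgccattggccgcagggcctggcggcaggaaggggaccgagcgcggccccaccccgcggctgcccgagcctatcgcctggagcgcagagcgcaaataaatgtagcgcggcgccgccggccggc
Ghsr: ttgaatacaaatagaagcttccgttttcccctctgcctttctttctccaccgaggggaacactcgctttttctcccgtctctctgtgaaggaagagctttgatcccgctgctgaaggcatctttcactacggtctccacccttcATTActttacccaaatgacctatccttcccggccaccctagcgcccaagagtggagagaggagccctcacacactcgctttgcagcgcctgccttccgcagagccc
Rbp4: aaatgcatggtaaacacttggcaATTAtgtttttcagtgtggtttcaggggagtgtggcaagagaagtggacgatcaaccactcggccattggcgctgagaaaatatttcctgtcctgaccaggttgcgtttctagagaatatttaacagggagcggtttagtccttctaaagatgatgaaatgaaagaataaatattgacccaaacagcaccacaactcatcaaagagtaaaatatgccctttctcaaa
Sstr2: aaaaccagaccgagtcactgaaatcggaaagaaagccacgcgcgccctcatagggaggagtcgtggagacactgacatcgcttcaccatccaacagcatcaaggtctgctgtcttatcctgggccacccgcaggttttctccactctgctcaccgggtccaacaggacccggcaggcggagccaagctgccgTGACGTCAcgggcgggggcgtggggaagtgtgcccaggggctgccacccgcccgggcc
The complete CRE stood 48 to 41 bases before the start of *Sst* and 58 to 51 bases before that of *Sstr2*. It was present in 508 of the 32851 windows of this length in the RefSeq table, or 1.55%, and in none of the other windows of the 8 genes that had one. TAAT, found in 54.9% of all windows, occurred in those of *Sst*, *Ghsr* and *Rbp4* and not in that of *Hhex*, which had a GC content of 76.0% with 32 CpG dinucleotides against 47.2% and 8 for *Sst*. The RefSeq start of *Sst* lies 114 bases inside the gene as drawn by gencode vM21. *Rbp4* had a second RefSeq start, whose window held TATAAA (in 12.4% of all windows) 28 to 23 bases upstream and TGACG, the shorter form of the CRE contained in it, which was in 17.8% of windows. The letters are a description of these windows and not of binding. *Sstr1* was not among the promoter windows used here.

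*Sst* (ENSMUSG00000004366) lies on chromosome 16 from 23889573 to 23890958 on the minus strand. In the non-beta cells of mice 1, 2 and 3, *Sst* had 6425, 12764 and 12178 CPM. In the NNAT-positive-labelled libraries it had 1842, 1981, 2403 and 1322 CPM in mice 1 to 4, and in the NNAT-negative-labelled ones 516, 1016, 777 and 661 CPM. The 3 fractions did not overlap, and the order of non-beta, labelled NNAT-positive and labelled NNAT-negative held in each mouse with the libraries to show it. Relative to the non-beta cells of the same mouse, *Sst* stood at 21.3% ± 6.71 (SD, *n*=3) in the fraction labelled NNAT-positive and at 7.46% ± 0.935 (*n*=3) in the other.

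*Rbp4*, which encodes the carrier of retinol in plasma, lies on chromosome 19 from 38116629 to 38125281 on the minus strand. It had 423, 666 and 600.0 CPM in non-beta cells of mice 1 to 3. The NNAT-positive-labelled libraries had 68.4, 73.3, 77.9 and 68.5 CPM, and the NNAT-negative-labelled ones 26.1, 28.1, 26.4 and 27.5 CPM. Its spread within each beta cell fraction was narrow (72.0 ± 4.51 and 27.0 ± 0.951 CPM), and the ratio between the fractions was 2.62, 2.61, 2.95 and 2.49 in mice 1 to 4. *Rbp4* thereby stood at 13.4% ± 2.62 and 4.93% ± 1.08 of its non-beta level (*n*=3 each).

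*Hhex* lies on chromosome 19 from 37434810 to 37440731 on the plus strand. Its level was 38.1, 50.0 and 46.2 CPM in non-beta cells, 8.71, 9.43, 6.31 and 8.77 CPM in the NNAT-positive-labelled libraries, and 0.341, 2.07, 3.50 and 4.29 CPM in the NNAT-negative-labelled ones. The 3 fractions did not overlap, although the lowest value, in mouse 1, rested on 10 counts. *Ghsr* lies on chromosome 3 from 27371351 to 27378010 on the plus strand, and had 11.9, 27.6 and 17.5 CPM in non-beta cells. It had 2.44, 2.57, 2.88 and 3.43 CPM in the NNAT-positive-labelled libraries and 0.751, 0.0913, 1.08 and 2.24 CPM in the NNAT-negative-labelled ones, where the value of mouse 2 was 3 counts. *Hhex* stood at 18.5% ± 4.62 and 4.20% ± 3.33 of non-beta cells in the fractions labelled NNAT-positive and NNAT-negative, and *Ghsr* at 15.4% ± 5.68 and 4.27% ± 3.41 (*n*=3 each). The means of these 4 delta cell genes were thus between 13.4% and 21.3% of non-beta in the former fraction and between 4.20% and 7.46% in the latter.

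**Figure D1:**
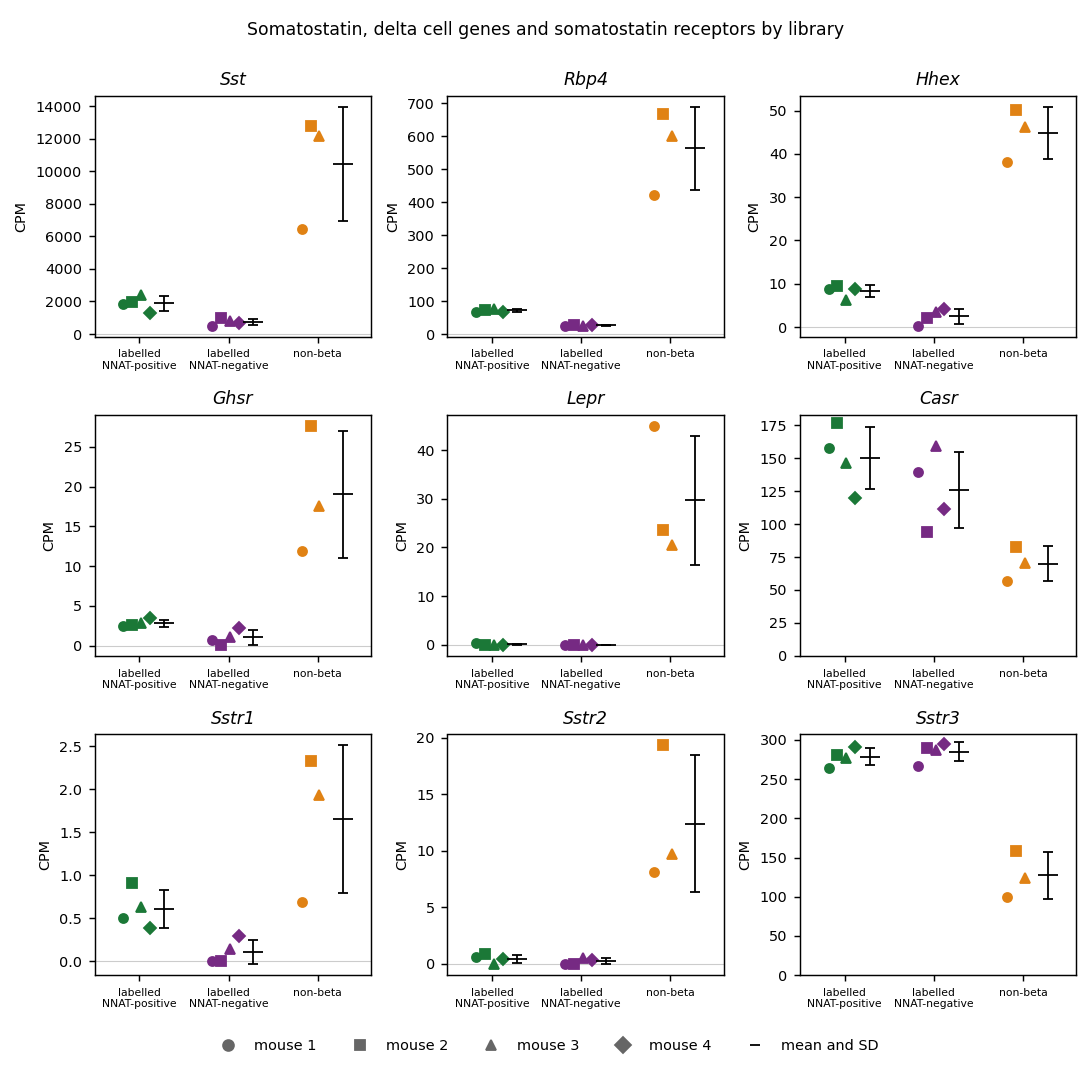
CPM of the 9 genes (vertical axes, linear, a scale for each gene) in each library, grouped by fraction, with a symbol for each mouse and the mean and SD beside the points. *Sst*, *Rbp4*, *Hhex* and *Ghsr* fall in 3 steps from non-beta cells, *Lepr* is at or near 0 in the beta cell libraries, and *Casr* and *Sstr3* lie above their non-beta levels.

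The remaining delta cell genes of the list did not share this order. *Casr*, the receptor that senses extracellular calcium, lies on chromosome 16 from 36493696 to 36562141 on the minus strand. It had 56.5, 82.6 and 70.8 CPM in non-beta cells, 158, 177, 146 and 120 CPM in the NNAT-positive-labelled libraries, and 139, 93.8, 159 and 112 CPM in the NNAT-negative-labelled ones. All 8 beta cell libraries lay above the 3 non-beta libraries, and the beta cell fractions overlapped. Over all tested genes, 21.9% and 18.5% lay wholly above non-beta cells, and 28.8% and 28.9% wholly below, in the fractions labelled NNAT-positive and NNAT-negative. *Casr* stood at 233% ± 40.4 and 195% ± 71.3 of non-beta cells, respectively (*n*=3 each).

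*Lepr*, the leptin receptor gene, lies on chromosome 4 from 101717404 to 101815352 on the plus strand. It had 45.0, 23.6 and 20.6 CPM in non-beta cells. Among the beta cell libraries it had 10 counts (0.281 CPM) in the library labelled NNAT-positive of mouse 1 and 0 counts in the other 7. Over the 4 libraries labelled NNAT-negative, 0 counts put *Lepr* at least 290-fold lower than in non-beta cells, at the floor of 3 counts per library, or at most 0.344% of their level. In the fraction labelled NNAT-positive the mean was 0.208% ± 0.361 of non-beta (*n*=3). The summed CPM of 6 endothelial markers (*Pecam1*, *Cdh5*, *Kdr*, *Plvap*, *Flt1* and *Tek*) stood at 0.149% ± 0.237 in the same libraries and was highest in the same one (8.65 CPM, against 2047 to 2348 CPM in non-beta cells). The part of endothelial RNA in the *Lepr* values was not tested.

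**Figure D2:**
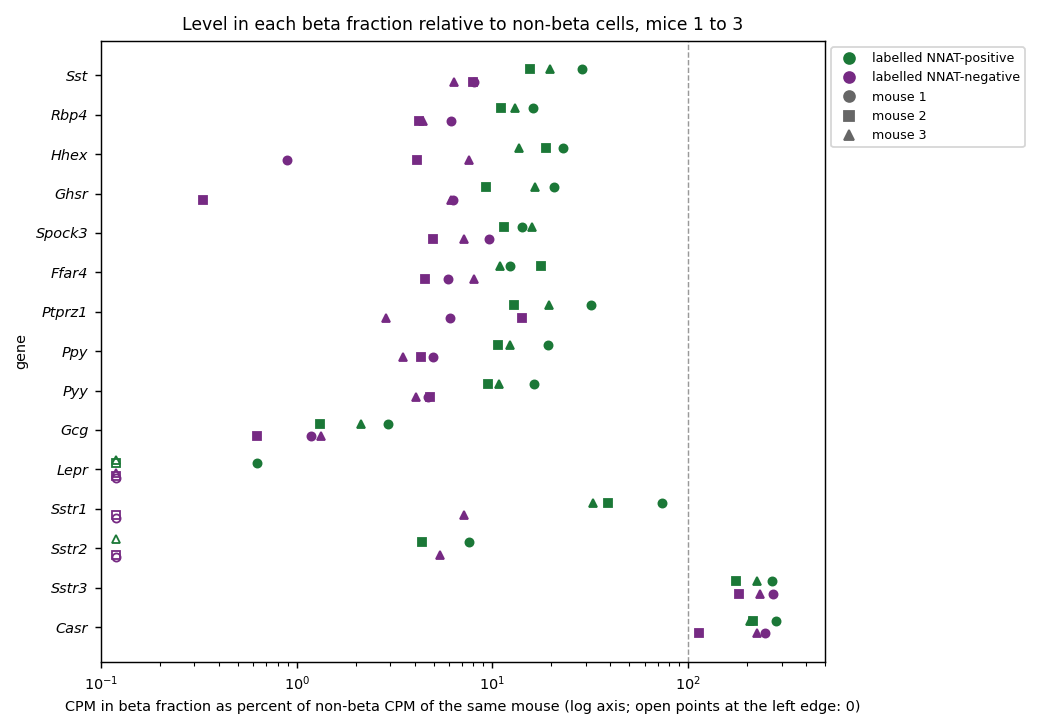
CPM in each beta cell fraction as a percentage of non-beta CPM in the same mouse (horizontal axis, log scale, open points at the left edge standing for 0) for the 9 genes, 3 further delta cell genes and the hormone genes *Ppy*, *Pyy* and *Gcg*, for mice 1 to 3. In the fraction labelled NNAT-positive the delta cell genes from *Sst* to *Ptprz1* lie to the right of *Gcg* of the same mouse, in the other fraction *Hhex* of mouse 1 and *Ghsr* of mouse 2 lie to its left, and *Sstr3* and *Casr* lie beyond the line at 100%.

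The receptors were compared on a scale of CPM per kilobase of annotated exons, since their genes differ in length. *Sstr3* (chromosome 15, 78537008 to 78544685, minus strand) had 99.1, 159 and 124 CPM in non-beta cells. It had 264, 280, 277 and 291 CPM in the NNAT-positive-labelled libraries and 267, 290, 287 and 294 CPM in the NNAT-negative-labelled ones, all above the non-beta libraries. *Sstr2* (chromosome 11, 113619342 to 113626028, plus strand) ran the other way, with 8.11, 19.3 and 9.73 CPM in non-beta cells. It had 0.618, 0.840, 0 and 0.388 CPM in the NNAT-positive-labelled libraries and 0, 0, 0.527 and 0.355 CPM in the NNAT-negative-labelled ones, so that it was at 0 counts in 3 of the 8 beta cell libraries and the fractions overlapped. *Sstr1* (chromosome 12, 58211772 to 58214444, plus strand) was low everywhere, with 0.692, 2.33 and 1.94 CPM in non-beta cells, 0.506, 0.912, 0.628 and 0.388 CPM in the NNAT-positive-labelled libraries, and 0, 0, 0.139 and 0.301 CPM in the NNAT-negative-labelled ones. Its beta cell fractions did not overlap, on sums of 97 and 16 counts over 4 libraries each.

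Per kilobase, *Sstr3* made up 99.1% ± 0.470 of the summed level of *Sstr1* to *Sstr5* in the fraction labelled NNAT-positive, 99.7% ± 0.339 in the fraction labelled NNAT-negative (*n*=4 each) and 81.5% ± 3.59 in non-beta cells (*n*=3). *Sstr2* made up 15.3% ± 3.16 in non-beta cells, with a range of 13.3% to 19.0%, and at most 0.595% in any beta cell library. *Sstr3* was therefore the leading receptor transcript in all 11 libraries, non-beta cells included, and the beta cell and non-beta shares of *Sstr2* did not overlap. *Sstr4* and *Sstr5*, and *Cort*, which encodes the related ligand cortistatin, did not pass the filter on low counts. *Sstr4* had at most 31 counts in a library, and *Sstr5* and *Cort* had counts in the beta cell libraries of mouse 4 only, at most 9 and 5.

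**Figure D3:**
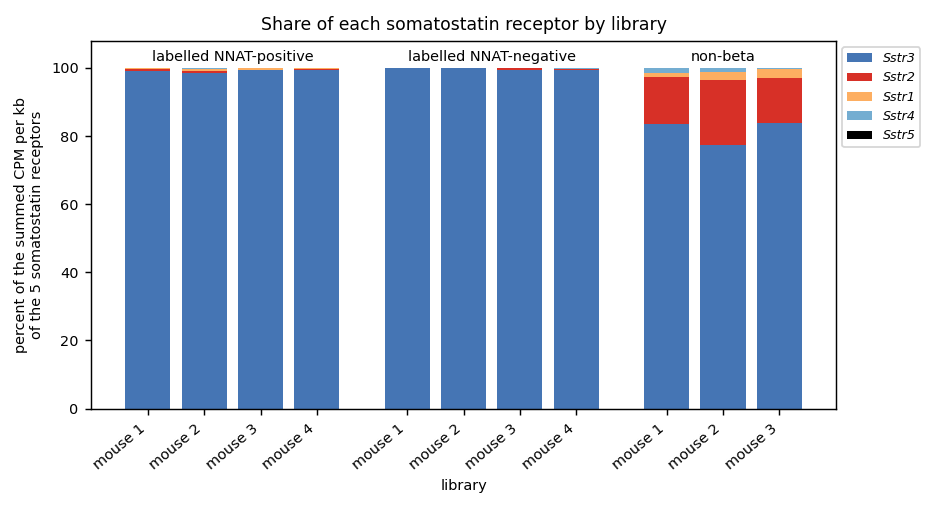
Share of each somatostatin receptor gene in the summed CPM per kilobase of the 5 receptors (vertical axis, percent) for each of the 11 libraries. *Sstr3* fills nearly the whole bar in the 8 beta cell libraries, and *Sstr2* adds 13.3% to 19.0% in non-beta cells.

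On the same scale per kilobase, *Sst* was the highest of the 9 genes in each fraction, at 14501 ± 4858 CPM per kilobase in non-beta cells, 2617 ± 618 in the fraction labelled NNAT-positive and 1030 ± 293 in the other. In non-beta cells it was followed by *Rbp4* (419 ± 93.8), *Sstr3* (29.4 ± 6.94), *Casr* (14.8 ± 2.77), *Hhex* (8.86 ± 1.20), *Sstr2* (5.78 ± 2.83), *Ghsr* (4.29 ± 1.79), *Lepr* (4.22 ± 1.88) and *Sstr1* (0.808 ± 0.418). The ranges of *Hhex* and *Sstr2*, of *Sstr2* and *Ghsr*, and of *Ghsr* and *Lepr* overlapped, and the other neighbours in this order did not. In the fraction labelled NNAT-positive *Sstr3* (64.4 ± 2.52) came before *Rbp4* (53.6 ± 3.36) and *Casr* (31.8 ± 5.05). In the fraction labelled NNAT-negative *Casr* (26.7 ± 6.13) came after *Sstr3* (65.9 ± 2.79) and overlapped *Rbp4* (20.1 ± 0.708). *Hhex*, *Ghsr*, *Sstr1*, *Sstr2* and *Lepr* had means of at most 1.64 CPM per kilobase in the beta cell fractions.

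The first comparison asked how the beta cell fractions differ from each other. With edgeR's quasi-likelihood test, the mouse as a block and Benjamini-Hochberg adjustment over 17424 genes, a call needed more than a 2-fold change with an adjusted *p* under 0.01. *Rbp4* was the 1 gene of the 9 that was called, and it rose in the fraction labelled NNAT-positive (log2 fold change 1.41, SE 0.11, adjusted *p*=0.000673, higher in 4 of 4 mice), against 0.0459% of all tested genes called. *Sst* differed by a similar amount, 2.58-fold (log2 fold change 1.37, SE 0.16), with an adjusted *p* of 0.0105 in edgeR and a higher value in 4 of 4 mice. *Hhex* (1.84, SE 0.44, adjusted *p*=0.295), *Ghsr* (1.65, SE 0.54, adjusted *p*=0.661) and *Sstr1* (3.06, SE 1.25, adjusted *p*=0.844) had larger log2 fold changes and larger errors, each with a higher value in 4 of 4 mice. The CPM ranges of *Sst*, *Hhex*, *Ghsr*, *Rbp4* and *Sstr1* did not overlap between the fractions, which held in this direction for 1.72% of all tested genes.

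*Sstr3* differed by a log2 value of −0.03 (SE 0.10, adjusted *p*=1), and its ratio between the fractions was 0.990, 0.965, 0.966 and 0.988 in mice 1 to 4. For *Casr* the log2 fold change was 0.25 (SE 0.17, adjusted *p*=0.905, higher in 3 of 4 mice), and for *Sstr2* 0.98 with an SE of 1.22 (adjusted *p*=0.962). No fold is given for *Lepr*, since 10 counts of 1 library stood against 0. The median log2 fold change of the other 8 genes was 1.39, beside 0.05 over all tested genes. The call of *Rbp4* was lost without mouse 3 (adjusted *p*=0.0353 in edgeR), and *Sst* was called with DESeq2 (adjusted *p*=2.88e-10), with no filter on low counts (8.01e-05) and in a fit without the non-beta libraries (0.00462).

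**Figure D4:**
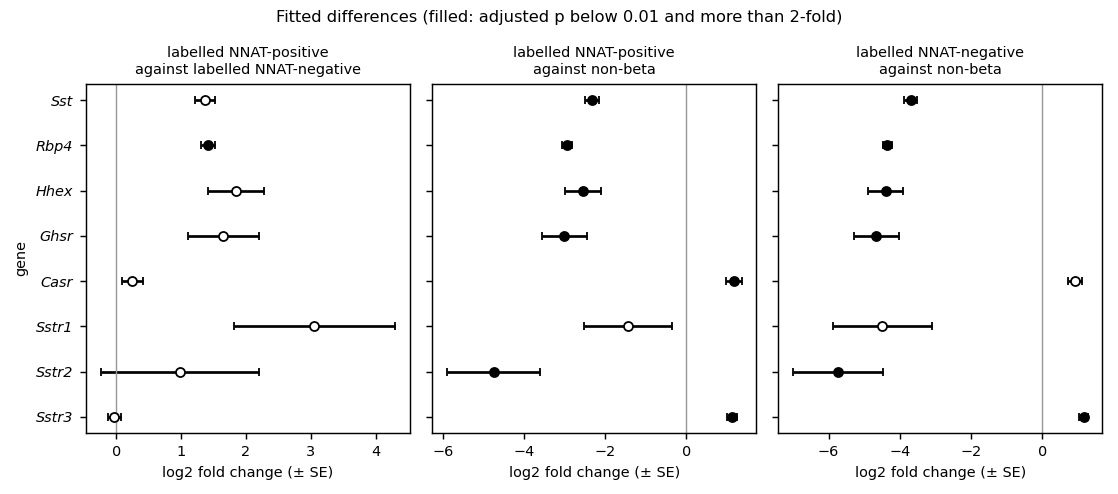
Log2 fold changes with SE (horizontal axes) of 8 genes in the 3 comparisons, with filled points for called genes. *Sst*, *Rbp4*, *Hhex* and *Ghsr* lie between 1.37 and 1.84 in the first panel and below 0 in the others, and *Sstr3* lies near 0 in the first panel and above 1 in the others. *Lepr*, which passed the filter through non-beta cells only, is not drawn.

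The other comparisons set each beta cell fraction against the same 3 non-beta libraries, so they are not independent of each other. *Lepr* is given above by its values alone, since it passed the filter only through the non-beta libraries and so had to differ. The other 8 genes would have passed in the beta cell libraries alone, as did 15115 of the 17424. In the fraction labelled NNAT-positive, *Sst*, *Rbp4*, *Hhex*, *Ghsr* and *Sstr2* were called lower than in non-beta cells, 5 of the 8 against 15.5% of all tested genes and 10.4% of those 15115, and *Casr* and *Sstr3* were called higher, against 6.13%, so that 7 of the 8 were called in either direction against 21.6%. *Sst* was lower 5.01-fold (log2 fold change −2.32, SE 0.18, adjusted *p*=3.03e-06), *Hhex* 5.85-fold (−2.55, SE 0.44, adjusted *p*=0.000793), *Rbp4* 7.68-fold (−2.94, SE 0.12, adjusted *p*=7.59e-08) and *Ghsr* 8.06-fold (−3.01, SE 0.56, adjusted *p*=0.00129). *Sstr2* was lower by a log2 value of −4.75 (SE 1.16, adjusted *p*=0.00661). *Casr* was 2.26-fold higher (log2 1.18, SE 0.19, adjusted *p*=0.000556) and *Sstr3* 2.19-fold (1.13, SE 0.12, adjusted *p*=2.50e-05), while *Sstr1* was not called (−1.43, SE 1.08, adjusted *p*=0.315).

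In the fraction labelled NNAT-negative the same 5 genes were called lower, against 17.1% of all tested genes and 11.7% of the 15115, and *Sstr3* was called higher, against 6.18%, or 6 of the 8 against 23.3% in either direction. *Sst* was lower 12.9-fold (log2 fold change −3.69, SE 0.19, adjusted *p*=2.00e-07), *Rbp4* 20.4-fold (−4.35, SE 0.12, adjusted *p*=1.52e-08), *Hhex* 21.0-fold (−4.39, SE 0.49, adjusted *p*=4.24e-05) and *Ghsr* 25.3-fold (−4.66, SE 0.63, adjusted *p*=0.000163). For *Sstr2* the log2 fold change was −5.73 (SE 1.27, adjusted *p*=0.00377) and for *Sstr3* 1.16 (SE 0.12, adjusted *p*=1.91e-05). *Casr* passed the adjusted *p* at 0.00246 but not the fold (0.93, SE 0.19), and *Sstr1* had −4.49 (SE 1.39, adjusted *p*=0.0214). The median log2 fold change of the 8 genes was −2.44 against −0.06 over all tested genes in the fraction labelled NNAT-positive and −4.37 against −0.13 in the other.

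Several of these calls rested on 1 mouse or tool. Between the fraction labelled NNAT-positive and non-beta cells, *Ghsr* lost its call without mouse 3 (adjusted *p*=0.0115 in edgeR), *Sstr3* without mouse 1 (log2 fold change 0.99), and *Sstr2* with DESeq2 (0.0405) or without mouse 1, 2 or 4 (0.0103, 0.0255 and 0.0181 in edgeR). Between the fraction labelled NNAT-negative and non-beta cells, *Sstr2* lost its call without mouse 2 (0.0216), *Casr* was called without mouse 2 (log2 fold change 1.20, adjusted *p*=9.66e-05 in edgeR) and *Sstr1* with DESeq2 (adjusted *p*=0.000162).

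Of 7 further genes known from delta cells, 6 were tested, none was called between the beta cell fractions, and *Spock3*, *Ffar4* and *Ptprz1* were called lower in both beta cell fractions than in non-beta cells, 3 of the 5 that passed the filter in the beta cell libraries alone (against 10.4% and 11.7%). *Ffar4*, a receptor of long-chain fatty acids, stood at 13.6% ± 3.57 and 6.18% ± 1.79 of non-beta in the fractions labelled NNAT-positive and NNAT-negative, *Spock3*, a matrix proteoglycan, at 13.8% ± 2.24 and 7.27% ± 2.35, and *Ptprz1*, a receptor tyrosine phosphatase, at 21.4% ± 9.72 and 7.67% ± 5.77 (*n*=3 each). The log2 fold changes between the beta cell fractions were 1.16 for *Ffar4* (SE 0.24, adjusted *p*=0.193), 0.88 for *Spock3* (SE 0.22, adjusted *p*=0.317) and 1.38 for *Ptprz1* (SE 0.43, adjusted *p*=0.576). The median of the 6 in that comparison was 1.02, 3 of the 6 had an unadjusted *p* below 0.05 in edgeR, against 5.56% of all tested genes, and DESeq2 called *Ffar4*.

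Markers of other islet cells moved with the delta cell genes. The pancreatic polypeptide cell hormones *Ppy* (131.7 against 46.5 CPM, log2 fold change 1.53, SE 0.17, adjusted *p*=0.00764) and *Pyy* (213 against 85.5 CPM, 1.35, SE 0.14, adjusted *p*=0.00751) were both called higher in the fraction labelled NNAT-positive. Their summed CPM ranged from 299.7 to 421 in that fraction, from 89.0 to 159 in the other and from 1857 to 3690 in non-beta cells. This sum stood at 12.8% ± 3.86 and 4.42% ± 0.511 of non-beta cells in the fractions labelled NNAT-positive and NNAT-negative (*n*=3 each). The means of *Sst*, *Rbp4*, *Hhex* and *Ghsr* were 13.4% to 21.3% and 4.20% to 7.46%. Of 5 alpha cell markers edgeR called none between the beta cell fractions, with 4 at an unadjusted *p* below 0.05 (against 5.56% of all tested genes), and DESeq2 called 2. In edgeR, *Gcg*, the glucagon gene, was at an adjusted *p* of 0.0709 (log2 fold change 1.06, SE 0.17, 2823 against 1371 CPM). The alpha cell sum was 2227 to 3529 CPM, 1054 to 1921 CPM and 119622 to 167289 CPM in the 3 fractions, so that it stood at 2.14% ± 0.810 of non-beta cells in the fraction labelled NNAT-positive and 1.05% ± 0.368 in the other. No alpha cell or polypeptide cell marker was at 0 in all libraries of a fraction. The 6 acinar markers summed to 8.00 to 1964 CPM, 44.5 to 389 CPM and 14597 to 55923 CPM, and none was called between the beta cell fractions by edgeR or DESeq2, with 0 at an unadjusted *p* below 0.05. In each of mice 1 to 3 the percentage of non-beta was higher for *Sst*, *Rbp4*, *Hhex* and *Ghsr* than for *Gcg* in the fraction labelled NNAT-positive. In the other fraction this held for *Sst* and *Rbp4*, while *Hhex* was below *Gcg* in mouse 1 (0.895% against 1.18%) and *Ghsr* in mouse 2 (0.331%, from 3 counts, against 0.624%). The part of RNA from other cell types in the differences between the beta cell fractions was not tested.

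*Sst* varied most like *Pyy* over the 8 beta cell libraries (Pearson's *r* of log2 CPM 0.986), followed by *Cd24a* (0.971), *Gfod1* (0.964), *Bcam* (0.961) and *Socs6* (0.958). Over all 11 libraries the 5 nearest genes were *Pyy* (0.993), *Ppy* (0.990), *Arg1* (0.988), *Cd24a* (0.988) and *Rbp4* (0.983). Among the other genes of the list, *r* with *Sst* over the 8 beta cell libraries was 0.923 for *Rbp4*, 0.770 for *Hhex*, 0.748 for *Sstr1*, 0.438 for *Ghsr*, 0.389 for *Casr* and −0.21 for *Sstr3*. These values describe the libraries, which share mice and fall into fractions that differ in *Sst*.

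Somatostatin signals in its target cells through inhibitory G proteins, which inhibit adenylyl cyclases and open potassium channels of the GIRK type. Of 20 genes of these G proteins, adenylyl cyclases and GIRK channels and of the arrestins (*Arrb1* and *Arrb2*), 19 were tested. None was called between the beta cell fractions by edgeR or DESeq2, with 2 of the 19 (*Gnai1* and *Adcy8*) at an unadjusted *p* below 0.05 in edgeR, against 5.56% of all tested genes. *Adcy4* and *Adcy8* passed the filter through non-beta cells only, with means of 19.2 and 2.64 CPM there and at most 0.345 CPM in a beta cell fraction. Of the other 17 genes, *Adcy9* (88.1 and 83.5 against 31.7 CPM) and *Gnaz*, an inhibitory G protein subunit (68.8 and 78.2 against 31.1 CPM), were called higher than in non-beta cells in both beta cell fractions, 2 of 17 against 6.13% and 6.18% of all tested genes. *Gnai1*, *Kcnj3*, *Arrb1*, *Adcy1*, *Adcy3*, *Adcy5* and *Adcy7* were called lower in both, 7 of 17 against 10.4% and 11.7% of the genes that passed in the beta cell libraries alone. *Kcnj3*, a GIRK channel subunit, had 0.649 and 0.717 CPM in the beta cell fractions against 19.6 CPM in non-beta cells, and *Gnai1* 27.3 and 19.2 against 103.9 CPM. The median log2 fold change of the 17 was 0.14 between the beta cell fractions and −0.71 and −0.94 against non-beta cells.

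Of 5 genes that process prosomatostatin, none was called between the beta cell fractions by edgeR or DESeq2, with *Furin* at an unadjusted *p* below 0.05 in edgeR, and *Pcsk1*, a prohormone convertase, was called higher in both than in non-beta cells (1321 and 1275 against 93.8 CPM). Of 5 factors known to act on the *Sst* promoter, none was called between the beta cell fractions by edgeR or DESeq2, and 0 had an unadjusted *p* below 0.05. *Pdx1* was called higher in both beta cell fractions than in non-beta cells (245 and 243 against 30.3 CPM). Of 6 ligands and partners, 4 were tested. Among them none was called between the beta cell fractions by edgeR or DESeq2, and 0 had an unadjusted *p* below 0.05 in edgeR. *Ucn3*, the beta cell peptide that acts on delta cells through *Crhr2*, was called higher in both beta cell fractions (636 and 660 against 32.5 CPM), and *Ttr*, the partner of RBP4 in plasma, was called lower (574 and 541 against 4388 CPM). *Ghrl*, which encodes the ghrelin that binds GHSR, passed the filter through non-beta cells only and had at most 0.137 CPM in a beta cell library.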

How the data were processed

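Single cells of islets had been sorted by FACS, and libraries were made from 20 ng of RNA with a directional poly(A) kit. Per the labels and the methods of the study, the authors used STAR (2.7.1a) and mm10, counted reads on gencode vM25 and deposited raw counts, whole numbers for each gene. Whether the counting used the strand is not given in the sources used here. None of the 9 genes shares exonic bases with another gene in gencode vM21 (GRCm38), which gave coordinates and exon lengths, and matched 55141 of 55401 genes. DESeq2 1.32.0, named in the submitters' processing notes, made no value used here.

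Counts were analysed in R 4.3.3 with the quasi-likelihood test of edgeR 4.0.16 (TMM normalisation, filterByExpr by fraction, all 11 libraries, the mouse as a block). Benjamini-Hochberg adjustment covered 17424 genes, and a call needed more than a 2-fold change with an adjusted *p* under 0.01. An SE is the log2 fold change over the root of *F*. TMM-normalised sizes gave CPM, with a prior count of 2 for correlations of log2 CPM. Percentages of non-beta were taken within mice 1 to 3. Library totals were between 30420352 and 43238376, and the floor of 3 counts covers counting error only. Identical libraries were looked for among 55 pairs, and none was found. Libraries with the same number in the labels were taken to come from the same mouse, which the labels do not state in words. Deviations from the group means of the beta cell fractions had a mean correlation of 0.314 within a mouse (4 pairs, 0.182 to 0.658) and −0.10 between mice (12 pairs). The mouse was therefore fitted as a block. The *p* values rest on how the differences between fractions varied from mouse to mouse, with differences in level between mice removed.

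Promoter windows came from RefSeq on GRCm38.p6, with 11 windows for 8 of the 9 genes. For *Rbp4* the start nearest to that of gencode vM21 was printed. The 9 genes, the gene lists and the alternatives were chosen with earlier results of these data known. The genes named are the 9, *Nnat*, genes of the lists called in any comparison, cell type markers, and the 5 genes most like *Sst* in each set of libraries. *Ffar4*, *Spock3* and *Ptprz1* came under this rule. Ductal (6), leukocyte (6), mesenchymal (6), Schwann cell (3) and ghrelin cell (1) markers were also examined, and none was called between the beta cell fractions by edgeR or DESeq2. Alternatives were DESeq2 1.42.0, no block, RLE size factors, no filter, 2 groups in the fit, another threshold, other scalings and leaving out each mouse. Some results under the rule are not reported here. Scripts were tested on simulated data.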

Additional observations from a re-analysis of the deposited data

Results flagged for a closer look

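*Lepr* had 0.281 CPM in the library labelled NNAT-positive of mouse 1 and 0 in the other 3 libraries of that fraction, so that its gap to the others was the whole range, which Dixon's test sets apart. With 0 in 3 of 4 libraries any value above 0 in the fourth gives this outcome, so it says nothing about the size of the value. It was 1 of 17 groups, the 9 genes in both beta cell fractions without *Lepr* in the fraction labelled NNAT-negative, where all 4 libraries were at 0, and chance alone sets apart about 1 group in 20. In the same library the 6 endothelial markers had their highest sum among the beta cell libraries, at 8.65 CPM, and their part in the *Lepr* counts was not tested.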

How the results depend on the processing

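Of 216 recomputed log2 fold changes of 8 genes (*Lepr* left out), 203 kept their direction and their side of the threshold, 8 lost and 5 gained a call, and none changed sign. Between the beta cell fractions, 8 genes were called higher and 0 lower (839 and 130 at an unadjusted *p* below 0.05 in edgeR). There were 80 higher and 6 lower with DESeq2, 25 and 1 with no filter on low counts, and 18 higher at an adjusted *p* below 0.05 with no minimum fold. Without the mouse as a block, 1 gene, *Rbp4*, was called higher, and no call of the 8 genes changed in any comparison under this setting. Leaving out each mouse gave 0 to 5 genes called higher (5, 3, 0 and 3 without mice 1, 2, 3 and 4), with fewer libraries in the fit. At an adjusted *p* below 0.05 with no minimum fold, 3686 genes were higher and 4576 lower than in non-beta cells in the fraction labelled NNAT-positive, and 3593 and 4959 in the other, against 1068, 2697, 1076 and 2980. The percentage of non-beta moved by more than its SD in 4 of 54 values under other scalings. *Sst* in the fraction labelled NNAT-negative was 6.50% with library totals and 9.04% with totals without *Ins1* and *Ins2*, under which *Casr* was 275% in the fraction labelled NNAT-positive and *Sstr3* 274% in the other. Depth limits *Sstr1*, *Sstr2* and *Lepr* in beta cells, where group sums were at most 97 counts.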
